A study of Mus musculus with 12 samples.

Results

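The cyclins and cyclin-dependent kinases (CDKs) that carry cells through G1 and S phase were followed in C2C12 cells depleted of KEAP1, of the F-box protein CCNF (cyclin F), or of both. The 10 genes, Ccnd1, Ccnd2, Ccnd3, Ccne1, Ccne2, Ccna2, Cdk2, Cdk4, Cdk6 and Cdc25a, were taken by their symbol from a deposited table of 54532 genes. All 10 were among the 15122 genes that passed a filter on low counts and were tested. C2C12 is an established line of mouse myoblasts that withdraw from the cell cycle and fuse into myotubes when serum is removed. The cells were transfected for 48 h with siRNA at 30 nM, and poly(A) RNA was sequenced in 3 biological replicates per group, which gave 12 libraries. The 4 groups received a non-targeting siRNA (called siCONTROL), the Keap1 siRNA alone (siKEAP1), the Ccnf siRNA alone (siCCNF), or these 2 together (siKEAP1/siCCNF). All groups were thus transfected cells of 1 line in growth medium, and there was no untransfected group. The sources used here do not state which Ccnf siRNA was sequenced, or how the dose was divided in the double depletion, so an effect of 1 siRNA sequence cannot be told apart from the loss of its target.

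A D-type cyclin binds CDK4 or CDK6 in response to growth factors, and the complex starts to phosphorylate RB1 and its relatives, which hold back E2F transcription factors. E2F then induces the E-type cyclins, which activate CDK2 at the entry into S phase, and later cyclin A2, which keeps CDK2 active through S phase. The phosphatase CDC25A removes the inhibitory phosphates from these kinases, and in myoblasts the D-type cyclins and CDK4 also restrain MYOD1 and the differentiation program.

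The siRNA targets were measured first. Values are counts scaled to library size by TMM (CPM), which corrects each library for its depth, and intervals given as ± are SD over 3 libraries. Keap1 was at 84.3 to 90.0 CPM in siCONTROL and 80.3 to 88.6 CPM in siCCNF libraries, but at 12.3 to 12.8 CPM after siKEAP1 and 22.2 to 27.0 CPM after siKEAP1/siCCNF. The level of Keap1 was therefore higher in the double depletion than after siKEAP1 alone (log2 fold change 0.93, adjusted p = 1.07e-06). Ccnf was at 81.1 ± 3.99 CPM in siCONTROL and fell to 20.5 ± 0.778 CPM after siCCNF and 24.5 ± 1.01 CPM after siKEAP1/siCCNF. It also fell after siKEAP1, to 59.4 ± 4.83 CPM (log2 fold change -0.45, adjusted p = 0.000258). The libraries held 18464209 to 37743198 counts, every siCCNF library more than every siCONTROL library, and a member had from 210 to 11547 counts in a library. The myoblast markers Myod1 and Des were expressed in siCONTROL cells, at means of 227 and 614 CPM. The 7 myoblast markers summed to 1530 to 1690 CPM in siCONTROL libraries and 835 to 987 CPM in the others. These are values of whole cultures, so fewer cells in a phase and less RNA per cell cannot be told apart.

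Per transcript length, Cdk4 was the highest of the 10 genes in siCONTROL cells, at 117 ± 11.4 FPKM (fragments per kilobase of gene and per library size, as deposited). Ccna2 followed at 69.0 ± 1.54 FPKM, Ccnd1 at 47.0 ± 6.34 FPKM and Ccnd3 at 25.5 ± 1.25 FPKM, each without overlap with its neighbour in the order. Ccne2 and Ccne1 overlapped, at 16.2 ± 1.29 and 15.8 ± 1.11 FPKM, above Cdk2 at 11.6 ± 0.774 FPKM. Cdk6 and Cdc25a overlapped at 5.19 ± 1.33 and 4.75 ± 0.127 FPKM, and Ccnd2 was the lowest at 1.34 ± 0.207 FPKM. Cdk4 stayed first and Ccnd2 last in all 4 groups. Ccnd1 moved to second place after siKEAP1, at 96.1 ± 6.56 FPKM, and to the fourth after siCCNF, at 21.6 ± 1.59 FPKM, below Ccnd3 at 26.1 ± 0.672 FPKM.

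Against siCONTROL, siKEAP1 raised 1 of the 10 genes and lowered 5 at an adjusted p under 0.05, where 20.4% of all genes tested were called higher and 20.2% lower. Ccnd1 was the gene that rose, and Ccnd3, Ccne1, Ccne2, Ccna2 and Cdk2 were those that fell. After siCCNF, 2 members were higher (Ccne1 and Cdc25a) and 5 lower (Ccnd1, Ccne2, Ccna2, Cdk2 and Cdk4), beside 22.5% and 25.5% of all genes. After siKEAP1/siCCNF, 1 member was called higher (Cdc25a) and 5 lower (Ccnd1, Ccne2, Ccna2, Cdk2 and Cdk4), beside 20.6% and 23.6% of all genes. These 3 comparisons share their siCONTROL libraries. Changes of more than 2-fold were found for 2 members after siKEAP1, 4 after siCCNF and 2 after both, beside 11.5%, 11.4% and 10.3% of all genes in either direction. The count after siKEAP1 was 1 without siCONTROL replicate 1, siKEAP1 replicate 2 or siKEAP1 replicate 3 and with the gene length trend removed, since the log2 fold change of Ccnd1 was then 0.90, 1.00, 0.99 and 0.95. The median log2 fold change of the members was -0.26, -0.35 and -0.33, beside -0.0122, 0.0134 and 0.0139 over all genes tested.

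**Figure D1:**
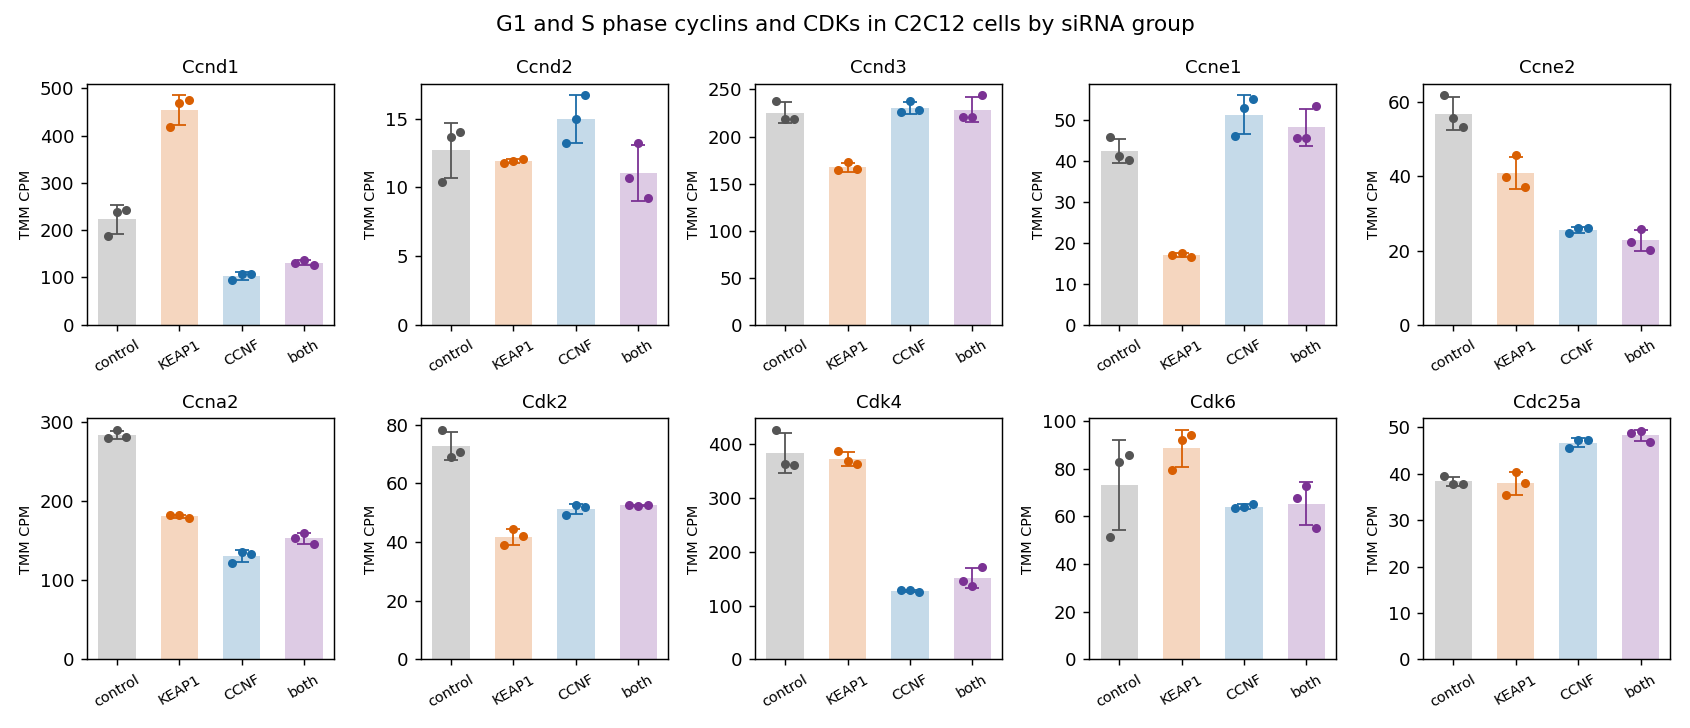
CPM of the 10 genes (y axis, TMM-scaled counts, from 0) in the 4 siRNA groups (x axis, with siKEAP1/siCCNF as both). Points are the 3 libraries, bars the mean and error bars the SD. Ccnd1 rises to 454 CPM after siKEAP1 and drops to 103 CPM after siCCNF, Ccne1 is low only in the siKEAP1 libraries (16.5 to 17.5 CPM), and Cdk4 is low in both groups that received siCCNF.

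Of the D-type cyclins, Ccnd1, the main target of growth factor signals among them, had 188, 238 and 243 CPM in the siCONTROL libraries and 418, 468 and 476 CPM after siKEAP1. It had 93.8, 108 and 107 CPM after siCCNF and 130, 137 and 126 CPM after siKEAP1/siCCNF. No 2 of these groups overlapped, and the order was siCCNF, siKEAP1/siCCNF, siCONTROL, siKEAP1. Ccnd1 rose 2.03-fold after siKEAP1 (log2 fold change 1.02, SE 0.0966, adjusted p = 2.42e-06). It fell 2.17-fold after siCCNF (log2 fold change -1.12, SE 0.0973, adjusted p = 1.05e-06). With both siRNAs it was 1.7-fold below siCONTROL (log2 fold change -0.77, SE 0.0967, adjusted p = 2.92e-05). Ccnd1 was therefore changed in opposite directions by the single depletions, and the double depletion took the side of siCCNF. Oraov1 lies on the opposite strand, and its annotated span, introns included, shares 1771 bases with that of Ccnd1. Its level was 14.6 CPM in siCONTROL and 21.9 CPM after siCCNF. The sources do not state whether counting used strand, so reads of any exons within such overlaps cannot be assigned to 1 gene.

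Ccnd3, the D-type cyclin that remains in differentiating muscle cells, had 238, 219 and 219 CPM in siCONTROL and 164, 173 and 165 CPM after siKEAP1. After siCCNF it had 226, 238 and 228 CPM, and with both siRNAs 221, 221 and 244 CPM. The siKEAP1 libraries lay below all 9 others, which overlapped each other. Ccnd3 fell 1.35-fold after siKEAP1 (log2 fold change -0.43, SE 0.0623, adjusted p = 0.000106). Against siCONTROL its log2 fold change was 0.03 after siCCNF (SE 0.062, adjusted p = 0.67) and 0.02 after both (SE 0.0621, adjusted p = 0.784). Ccnd2, the third D-type cyclin, had only 9.23 to 16.7 CPM in any library, and its groups overlapped with siCONTROL in each comparison. Its log2 fold change against siCONTROL was -0.09 after siKEAP1, 0.24 after siCCNF and -0.20 after both, with adjusted p of 0.678, 0.192 and 0.298.

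The make-up of the D-type cyclins differed with these changes. Summed over Ccnd1, Ccnd2 and Ccnd3, the D-type mRNA was 73.9 ± 5.29 FPKM in siCONTROL, 116 ± 6.87 after siKEAP1, 49.3 ± 2.19 after siCCNF and 54.7 ± 0.955 after both. Ccnd1 made up 63.5% ± 4.20 of that sum in siCONTROL and 82.5% ± 0.872 after siKEAP1. After siCCNF its share was 43.9% ± 1.39, and after both 50.5% ± 2.13. Ccnd3 accounted for 34.7% ± 4.36 in siCONTROL, 16.4% ± 0.83 after siKEAP1, 52.9% ± 1.62 after siCCNF and 47.4% ± 2.48 after both. By FPKM, the siCCNF cells were thus the group in which Ccnd3 mRNA outweighed Ccnd1 mRNA in every library. This rests on the gene lengths used for FPKM. By CPM, Ccnd3 was above Ccnd1 in every library of the double depletion as well (221, 221 and 244 against 130, 137 and 126). None of the Ccnd1 and Ccnd3 shares after depletion overlapped with siCONTROL. Each gave p = 0.10 in the exact two-sided permutation test, the smallest that 3 against 3 libraries allow.

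**Figure D2:**
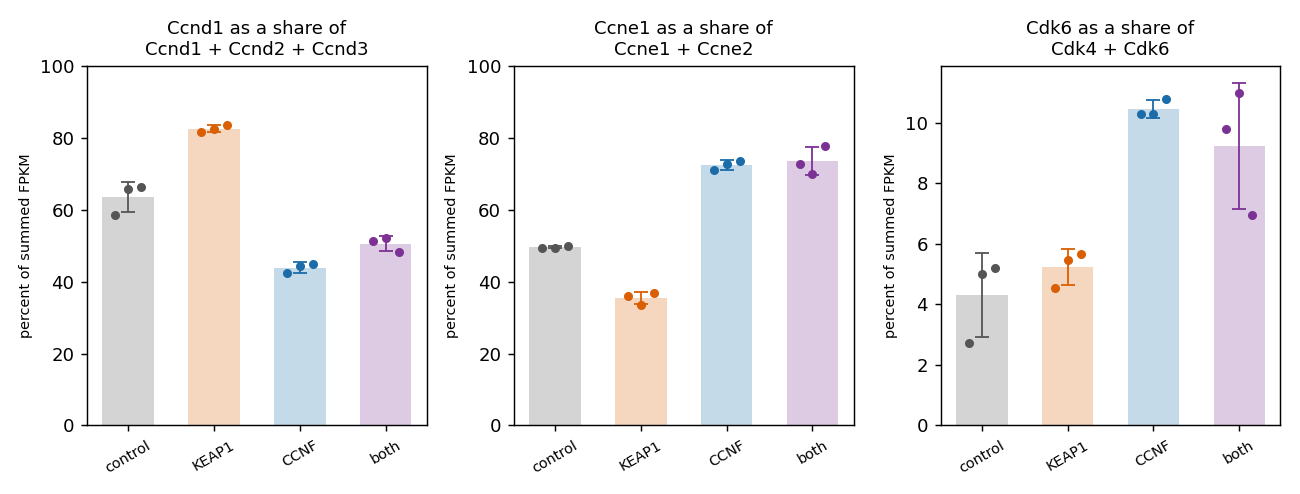
Shares of summed FPKM (y axis, percent) in the 4 siRNA groups (x axis) for Ccnd1 among the D-type cyclins, Ccne1 among the E-type cyclins and Cdk6 among Cdk4 and Cdk6. Points are the 3 libraries, bars the mean and error bars the SD. The Ccnd1 share runs from 43.9% after siCCNF to 82.5% after siKEAP1, and the Ccne1 share from 35.4% after siKEAP1 to 73.5% after siKEAP1/siCCNF.

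Cdk4, the more abundant of the kinases that pair with D-type cyclins, had 426, 363 and 360 CPM in siCONTROL and 387, 368 and 362 CPM after siKEAP1, 2 groups that overlapped (log2 fold change -0.04, SE 0.0866, adjusted p = 0.739). After siCCNF it had 128, 129 and 125 CPM, and after siKEAP1/siCCNF 145, 137 and 172 CPM. All 6 libraries with siCCNF thus lay below all 6 without it. The 3.01-fold fall after siCCNF was the largest change of any of the 10 genes against siCONTROL (log2 fold change -1.59, SE 0.0889, adjusted p = 2.56e-08). The fall was 2.53-fold with both siRNAs (log2 fold change -1.34, SE 0.0884, adjusted p = 1.17e-07). Tspan31, whose annotated span shares 641 bases with that of Cdk4 on the opposite strand, had a log2 fold change of -0.13 after siCCNF (adjusted p = 0.13).

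Cdk6, the other partner of the D-type cyclins, had 51.5, 82.7 and 85.5 CPM in siCONTROL, a wider spread than any other member within a group (coefficient of variation 25.7%). It had 79.5 to 93.9 CPM after siKEAP1, 63.3 to 65.1 CPM after siCCNF and 55.3 to 72.8 CPM after both, and each of these ranges overlapped with siCONTROL. No comparison of Cdk6 with siCONTROL passed the test, with log2 fold changes of 0.27, -0.19 and -0.16 and adjusted p of 0.191, 0.338 and 0.428. Its value rested on siCONTROL replicate 1. Without that library Cdk6 was lower after siCCNF (log2 fold change -0.39, adjusted p = 0.00634) and after both (-0.37, adjusted p = 0.00941). That library also deviated from its group with gene length across all genes (r = -0.305). In the same direction deviated siKEAP1/siCCNF replicate 3 (r = -0.276), which had the lowest Cdk6 of its group, 55.3 CPM. The part of these deviations in the Cdk6 values was not tested. Cdk6 made up 4.33% ± 1.38 of the summed FPKM of Cdk4 and Cdk6 in siCONTROL, 10.5% ± 0.287 after siCCNF and 9.23% ± 2.06 after both. The sum itself was 122 ± 10.1 FPKM in siCONTROL and 43.4 ± 0.647 FPKM after siCCNF, so the larger share came with a lower total.

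Of the E-type cyclins, which activate CDK2 at the start of S phase, Ccne1 had 45.8, 41.3 and 40.3 CPM in siCONTROL and 17.0, 17.5 and 16.5 CPM after siKEAP1. It had 46.0, 52.9 and 55.1 CPM after siCCNF and 45.6, 45.5 and 53.5 CPM after siKEAP1/siCCNF. The siKEAP1 libraries stood below all others, and those of the double depletion overlapped with siCONTROL. Ccne1 fell 2.49-fold after siKEAP1 (log2 fold change -1.32, SE 0.0938, adjusted p = 1.87e-07), the largest change of a member in that comparison. It rose 1.21-fold after siCCNF (log2 fold change 0.27, SE 0.0889, adjusted p = 0.022). That call was lost when siCONTROL replicate 2 or 3 or siCCNF replicate 2 or 3 was left out, with adjusted p of 0.0608, 0.0736, 0.0607 and 0.0867. After both, the log2 fold change was 0.18 (SE 0.0892, adjusted p = 0.118).

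Ccne2 had 61.9, 55.6 and 53.3 CPM in siCONTROL, 39.9, 45.7 and 37.1 CPM after siKEAP1, 24.7, 26.0 and 26.1 CPM after siCCNF and 22.4, 25.7 and 20.2 CPM after both. All 9 libraries of the depletions lay below siCONTROL, and the lowest levels were in the groups with siCCNF. Ccne2 fell 1.39-fold after siKEAP1 (log2 fold change -0.48, SE 0.1, adjusted p = 0.00188). The fall was 2.22-fold after siCCNF (-1.15, SE 0.101, adjusted p = 1.11e-06) and 2.5-fold after both (-1.32, SE 0.102, adjusted p = 4.6e-07). Ccne1 and Ccne2 contributed about equally to the E-type FPKM sum in siCONTROL, with Ccne1 at 49.5% ± 0.302. The Ccne1 share was 35.4% ± 1.74 after siKEAP1, 72.4% ± 1.31 after siCCNF and 73.5% ± 3.95 after both. Each of the 3 shares lay outside the range of siCONTROL (exact permutation p = 0.10, the smallest possible). The E-type sum was 32.0 ± 2.40 FPKM in siCONTROL, 18 ± 1.44 after siKEAP1, 26.4 ± 1.87 after siCCNF and 24.5 ± 1.22 after both. Ints8, on the opposite strand, has an annotated span, introns included, that shares 5622 bases with the span of Ccne2. It was at 74.7 CPM in siCONTROL, 83.7 after siKEAP1, 73.7 after siCCNF and 69.3 after both. Whether its reads entered the values of Ccne2 and the E-type shares was not tested.

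Ccna2, the cyclin of S and G2 phase, had 280, 290 and 281 CPM in siCONTROL and 182, 182 and 179 CPM after siKEAP1. It had 122, 136 and 133 CPM after siCCNF and 153, 160 and 146 CPM after both. The 4 groups did not overlap. Ccna2 fell 1.57-fold after siKEAP1 (log2 fold change -0.65, SE 0.0592, adjusted p = 1.83e-06), 2.18-fold after siCCNF (-1.12, SE 0.0596, adjusted p = 1.83e-08) and 1.86-fold after both (-0.89, SE 0.0594, adjusted p = 1.25e-07). Cdk2, the kinase that the E-type cyclins and cyclin A2 activate, had 78.2, 69.1 and 70.8 CPM in siCONTROL and 39.0, 44.4 and 42.0 CPM after siKEAP1. After siCCNF it had 49.3, 52.6 and 52.0 CPM, and after both 52.6, 52.4 and 52.5 CPM. Every depleted library was below siCONTROL, and here the siKEAP1 libraries were the lowest. Cdk2 fell 1.74-fold after siKEAP1 (log2 fold change -0.80, SE 0.07, adjusted p = 1.28e-06), 1.42-fold after siCCNF (-0.50, SE 0.0691, adjusted p = 5.45e-05) and 1.38-fold after both (-0.47, SE 0.0693, adjusted p = 0.000112).

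Cdc25a, the phosphatase that activates CDK2 and CDK4 complexes, had 39.5, 37.8 and 37.9 CPM in siCONTROL and 35.4, 40.3 and 38.1 CPM after siKEAP1. It had 45.6, 47.3 and 47.2 CPM after siCCNF and 48.7, 49.2 and 46.9 CPM after both. The 6 libraries with siCCNF lay above the 6 without it, the reverse of Cdk4. Cdc25a rose 1.22-fold after siCCNF (log2 fold change 0.28, SE 0.0644, adjusted p = 0.00276) and 1.26-fold after both (0.33, SE 0.0646, adjusted p = 0.00101). After siKEAP1 its log2 fold change was -0.02 (SE 0.0651, adjusted p = 0.869).

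**Figure D3:**
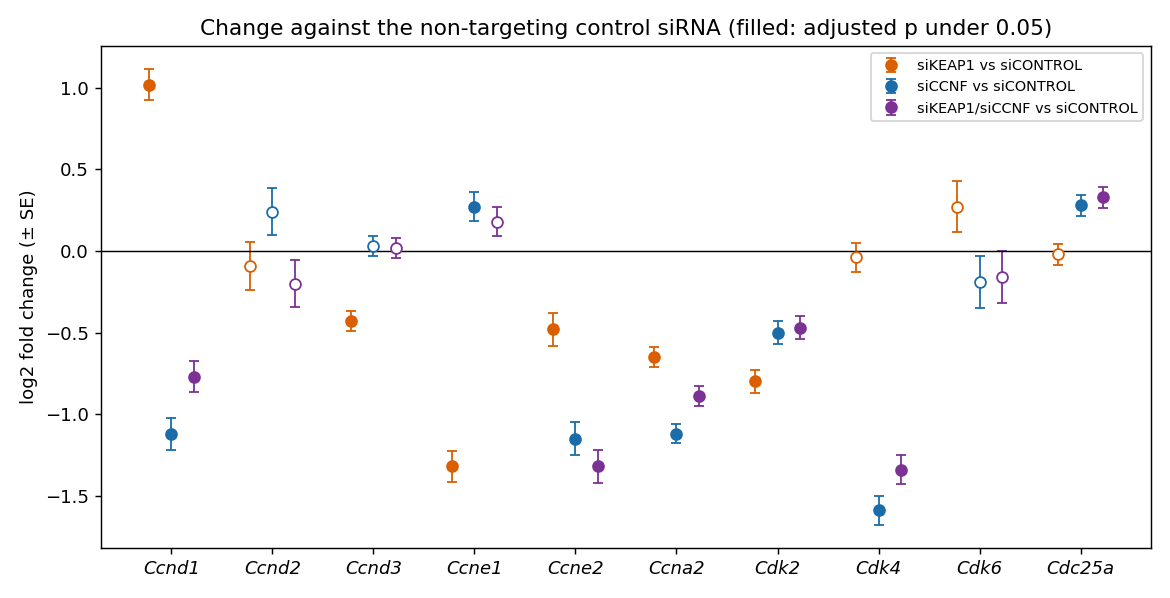
Log2 fold change against siCONTROL (y axis) of the 10 genes (x axis) after siKEAP1, siCCNF and siKEAP1/siCCNF. Error bars are the SE of the edgeR fit, and filled points have an adjusted p under 0.05. Values run from -1.59 for Cdk4 after siCCNF to 1.02 for Ccnd1 after siKEAP1, and Ccnd2 and Cdk6 have no filled point.

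RefSeq promoter windows, from 250 bases before to 50 after the start of a transcript on GRCm38.p6, were given for 6 of the 10 genes in 7 windows. Ccnd1, Ccnd2, Ccne2 and Ccna2 had none in the tables used. The windows were searched on both strands for the E2F motif, spelled TTTNNCGC, and for the cell cycle homology region, spelled TTTGAA. They were also searched for the CCAAT box, and for the core of the antioxidant response element, spelled TGACNNNGC, which NRF2, the transcription factor that KEAP1 holds down, binds. Of the 7 windows, 3 held the E2F motif (Cdk2, Cdk6 and Cdc25a), beside 5.2% of all 32851 windows, and 3 held CCAAT (Cdk2, Cdc25a and 1 of the 2 windows of Ccnd3), beside 37.4%. The antioxidant core was in 2 windows (Cdk4, at 2 places, and the other window of Ccnd3), beside 12.4% of all. The cell cycle homology region was in 0 of 7, beside 17.9%. The upstream parts of the 7 windows held 56.4% to 76.0% G and C, beside a median of 52.4% over all windows. The part of this in the matches was not tested. A match describes letters and not bound factors. The upstream stretches of 4 genes are printed because these genes gave the contrasting responses: Ccne1 fell most after siKEAP1, Cdk4 fell most after siCCNF, Cdk2 fell in all depletions and Cdc25a rose with siCCNF. Motif matches are in capitals, and the stretches end before the gene as the deposited table annotates it. They lie at chr7:38107535-38107740 on the minus strand for Ccne1, chr10:127063285-127063533 on the plus strand for Cdk4, chr10:128705052-128705301 on the minus strand for Cdk2 and chr9:109875329-109875578 on the plus strand for Cdc25a.
Ccne1: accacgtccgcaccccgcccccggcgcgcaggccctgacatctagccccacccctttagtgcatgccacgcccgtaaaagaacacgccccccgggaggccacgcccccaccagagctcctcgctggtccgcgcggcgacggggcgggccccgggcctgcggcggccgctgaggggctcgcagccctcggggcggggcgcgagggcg
Cdk4: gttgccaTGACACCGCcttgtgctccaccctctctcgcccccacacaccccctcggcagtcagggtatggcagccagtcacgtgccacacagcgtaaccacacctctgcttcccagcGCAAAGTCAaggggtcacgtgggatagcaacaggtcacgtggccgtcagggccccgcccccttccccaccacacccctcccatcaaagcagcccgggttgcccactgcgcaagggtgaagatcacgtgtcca
Cdk2: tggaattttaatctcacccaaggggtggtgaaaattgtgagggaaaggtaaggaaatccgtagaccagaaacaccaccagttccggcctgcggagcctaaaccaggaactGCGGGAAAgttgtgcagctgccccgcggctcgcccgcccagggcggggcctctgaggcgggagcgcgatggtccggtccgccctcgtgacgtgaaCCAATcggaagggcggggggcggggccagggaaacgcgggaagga
Cdc25a: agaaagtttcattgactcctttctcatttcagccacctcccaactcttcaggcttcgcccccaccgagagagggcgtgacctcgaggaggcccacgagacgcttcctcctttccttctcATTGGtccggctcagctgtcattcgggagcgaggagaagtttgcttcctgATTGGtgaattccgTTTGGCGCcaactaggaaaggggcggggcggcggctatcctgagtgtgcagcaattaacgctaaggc
The Ccne1 stretch held none of the 4 motifs. The capitals for Cdk4 are both antioxidant cores, those for Cdk2 the E2F motif on the opposite strand and CCAAT, and those for Cdc25a 2 CCAAT motifs on the opposite strand and the E2F motif.

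Between siKEAP1 alone and the double depletion, 9 of the 10 genes differed. Keap1 was also higher in the double depletion, at 24.1 against 12.6 CPM, and its part in these changes was not tested. Against siKEAP1 alone, the double depletion raised 4 members (Ccnd3, Ccne1, Cdk2 and Cdc25a) and lowered 5 (Ccnd1, Ccne2, Ccna2, Cdk4 and Cdk6), beside 24.1% of all genes called higher and 26.9% lower. Ccnd1 fell 3.47-fold (log2 fold change -1.79, SE 0.0986, adjusted p = 1.58e-08), from the highest level of the 4 groups to below siCONTROL. Ccne1 rose 2.83-fold (log2 fold change 1.5, SE 0.0933, adjusted p = 4.08e-08), to 45.5 to 53.5 CPM, against 40.3 to 45.8 CPM in siCONTROL. Ccnd3 rose 1.37-fold (0.45, adjusted p = 4.91e-05), Cdc25a 1.27-fold (0.35, adjusted p = 0.000572) and Cdk2 1.26-fold (0.33, adjusted p = 0.00155). Cdk4 fell 2.46-fold (log2 fold change -1.30, adjusted p = 8.85e-08) and Ccne2 1.79-fold (-0.84, adjusted p = 1.66e-05). The falls of Ccna2 and Cdk6 were smaller, with log2 fold changes of -0.24 and -0.44 and adjusted p of 0.00382 and 0.033. The call for Cdk6 was lost without siKEAP1 replicate 2 or 3 or without siKEAP1/siCCNF replicate 1 or 3, with adjusted p of 0.0942, 0.1, 0.0601 and 0.124.

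Adding siKEAP1 to siCCNF moved 1 of the 10 genes. Against siCCNF alone, 1 member was called higher and 0 lower, beside 3.00% and 2.19% of all genes. That member was Ccna2, which rose 1.17-fold (log2 fold change 0.23, SE 0.0591, adjusted p = 0.0409), a call that most alternatives did not keep. Ccnd1, at 130, 137 and 126 CPM, lay above the siCCNF libraries at 93.8, 108 and 107 CPM, but its log2 fold change of 0.35 had an adjusted p of 0.0582 (SE 0.0965). It was called in 7 alternatives with log2 fold changes of 0.34 to 0.38, among them DESeq2 (adjusted p = 0.0128) and the fit without siCONTROL replicate 1 (adjusted p = 0.00705). Cdk4 and Ccnd2 did not overlap between these groups either, with log2 fold changes of 0.25 (SE 0.0873, adjusted p = 0.139) and -0.44 (SE 0.143, adjusted p = 0.108), and Ccnd2 was called in 3 alternatives, among them the fit without siCONTROL replicate 1 (adjusted p = 0.041). The other 6 members overlapped, with log2 fold changes from -0.17 for Ccne2 to 0.05 for Cdc25a. Keap1 itself was lower by 1.82 on the log2 scale in this comparison (log2 fold change -1.82, adjusted p = 4.52e-08), against -2.80 for siKEAP1 alone.

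The difference between the effect of siKEAP1 in CCNF-depleted and in control cells was tested as an interaction. It was higher for 4 members and lower for 1, beside 10.6% and 10.5% of all genes tested. For Ccne1 the interaction was 1.23 on the log2 scale (SE 0.128, adjusted p = 3.54e-05), for Ccna2 0.88 (SE 0.0836, adjusted p = 1.8e-05), for Cdk2 0.83 (SE 0.0982, adjusted p = 8.21e-05) and for Ccnd3 0.42 (SE 0.0879, adjusted p = 0.00443). In each of these 4 genes siKEAP1 lowered the mRNA of control cells and gave a log2 difference between -0.09 and 0.23 in CCNF-depleted cells. For Ccnd1 the interaction was -0.68 (SE 0.136, adjusted p = 0.0034), with a rise of 1.02 in control cells and a difference of 0.35 in CCNF-depleted cells. Ccne2, which fell after siKEAP1 alone, had an interaction of 0.31 that did not pass (SE 0.143, adjusted p = 0.151). The depth of the Keap1 depletion, 12.6 CPM after siKEAP1 and 24.1 CPM after both, differed between the 2 effects compared, and its part in the interactions was not tested.

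**Figure D4:**
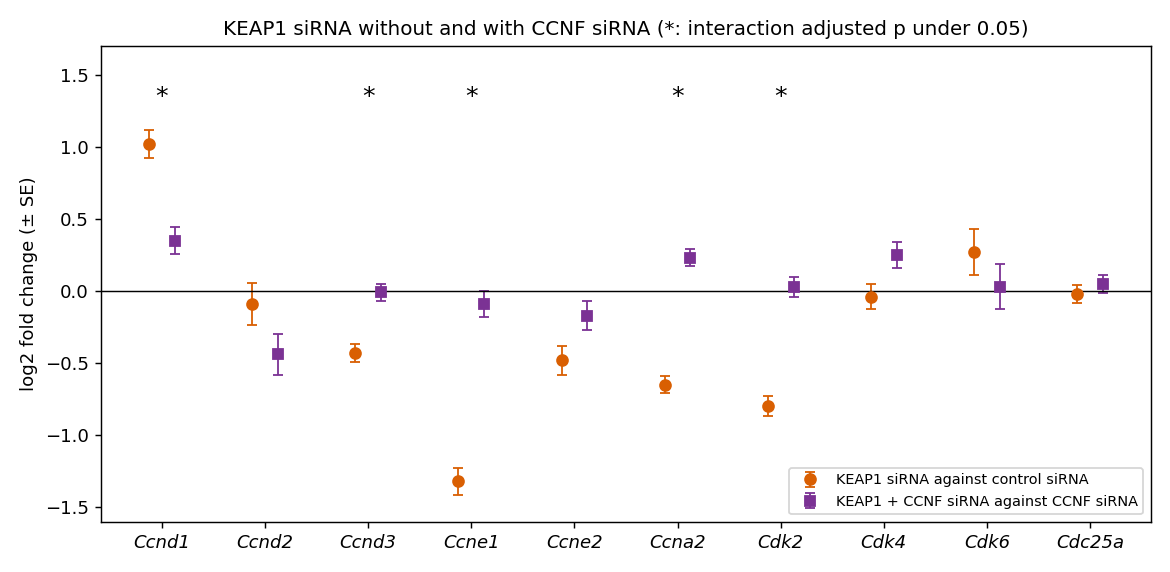
Log2 fold change (y axis, ± SE) of the 10 genes (x axis) after adding siKEAP1 to control siRNA (circles) or to siCCNF (squares). Asterisks mark genes with an adjusted p under 0.05 for the interaction, which are Ccnd1, Ccnd3, Ccne1, Ccna2 and Cdk2. Circles run from -1.32 for Ccne1 to 1.02 for Ccnd1, while squares lie between -0.44 and 0.35.

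Across the 12 libraries, pairs of members followed each other to different degrees, given here as a description over libraries that share 4 group means. Ccne1 and Ccnd3 had r = 0.98, Ccne2 and Ccna2 r = 0.91, and Cdk4 and Ccne2 r = 0.90, all on log2 CPM. Ccnd1 ran opposite to Ccne1 (r = -0.92), as did Cdk4 to Cdc25a (r = -0.93). Among 11825 genes compared, those with the pattern most like Ccne1 were Fbln5 (r = 0.988), Acta2 (r = 0.987) and Prss23 (r = 0.987). Those most like Cdk4 were Slc25a11 (r = 0.997), Txndc12 (r = 0.997) and Lmna (r = 0.996).

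Among the partners of these kinases, the retinoblastoma family, the substrates through which CDK4, CDK6 and CDK2 release E2F, was lower after siCCNF in 3 of 3 genes. Rb1 fell from 40.8 to 14.7 CPM (log2 fold change -1.47, adjusted p = 7.01e-08), Rbl1 from 81.9 to 42.9 CPM (-0.93, adjusted p = 3.48e-06) and Rbl2 from 91.3 to 62.9 CPM (-0.54, adjusted p = 0.00369). All 3 also fell with both siRNAs, by a median of -0.76 on the log2 scale. In siKEAP1 cells Rb1 rose (0.27, adjusted p = 0.0265) and the other 2 did not pass. Of the 8 E2F genes, 5 fell and 1 rose after siKEAP1, and 6 fell and 2 rose after siCCNF. E2f1, an activator that induces Ccne1, Ccna2 and Cdc25a in many cells, had a log2 fold change of -0.33 after siKEAP1 (adjusted p = 0.0102) and -1.08 after siCCNF (adjusted p = 7.24e-07). E2f3, another activator, had the largest fall of the family after siKEAP1 (-1.06, adjusted p = 1.25e-07) and also fell after siCCNF (-0.63, adjusted p = 9.26e-06). E2f2 fell in both (-0.34 and -0.54), as did E2f7 (-0.73 and -0.65) and E2f8 (-0.61 and -1.04), which repress E2F targets. E2f4 and E2f5 did not pass after siKEAP1 (0.05 and -0.02) and rose after siCCNF (0.17 and 0.48). E2f6, a repressor, rose after siKEAP1 (0.68, adjusted p = 2.46e-05) and fell after siCCNF (-0.87, adjusted p = 2.94e-06), the same directions as Ccnd1.

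Of the 7 CDK inhibitors, 5 were tested, and Cdkn2a and Cdkn2b were not. After siKEAP1, 1 rose and 4 fell. The one that rose was Cdkn1a, which encodes p21, an inhibitor of CDK2 that also binds cyclin D complexes, from 216 to 405 CPM (log2 fold change 0.91, SE 0.0802, adjusted p = 1.4e-06). It was at 188 CPM after siCCNF (-0.20, adjusted p = 0.0537) and at 213 CPM after both (-0.03, adjusted p = 0.822), and its interaction was -0.73 (adjusted p = 0.000571). Cdkn1c (p57) fell after siKEAP1 (-1.61, adjusted p = 0.000108), as did the CDK4 and CDK6 inhibitors Cdkn2c (-0.62, adjusted p = 2.2e-05) and Cdkn2d (-0.77, adjusted p = 0.000187), and Cdkn1b (p27) fell by less (-0.21, adjusted p = 0.0217). After siCCNF, Cdkn1b rose (0.26, adjusted p = 0.00539), Cdkn2c and Cdkn2d fell (-0.69 and -1.05), and 2 did not pass.

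Cdk7, the catalytic subunit of the kinase that activates CDK2 and CDK4, rose after siCCNF from 36.7 to 56.8 CPM (log2 fold change 0.63, adjusted p = 3.86e-06), and its partners Ccnh and Mnat1 did not pass (0.08 and -0.25). After siKEAP1, Cdk7 fell (-0.20, adjusted p = 0.0257) and the other 2 again did not pass. The inhibitory kinases Wee1 and Pkmyt1 and the phosphatases Cdc25b and Cdc25c all fell in siCCNF cells, by log2 fold changes of -1.12, -1.22, -1.27 and -1.38. Cdc25a was thus the 1 member of its phosphatase family to rise. After siKEAP1, 3 of these 4 fell and Cdc25b did not pass (-0.04, adjusted p = 0.589). Of the 4 genes that turn over cyclins and their inhibitors, Skp2 fell after siKEAP1 (-0.74, adjusted p = 1.84e-06) and siCCNF (-0.94, adjusted p = 1.75e-07), and Fbxw7, the F-box protein that targets cyclin E, rose in both (0.41, adjusted p = 0.00835, and 0.71, adjusted p = 0.000113). Cks1b fell after siCCNF (-1.03, adjusted p = 2.18e-06) and had -0.24 after siKEAP1 (adjusted p = 0.0594), and Ambra1, which targets D-type cyclins, did not pass in either (0.10 and 0.09).

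The cyclins and the kinase of the next phase fell as well. Ccnb1, Ccnb2 and Cdk1, which drive entry into mitosis, were lower in 3 of 3 genes in each comparison with siCONTROL, with median log2 fold changes of -0.53, -1.03 and -0.72. Of the cycling cell markers, Top2a fell after siKEAP1 (-0.79, adjusted p = 1.75e-05) while Mki67 and Pcna did not pass (-0.24 and -0.07), and all 3 fell after siCCNF (-0.67, -0.97 and -0.75). Their summed level was 1150 to 1490 CPM in siCONTROL, 993 to 1030 after siKEAP1, 743 to 843 after siCCNF and 757 to 945 after both. After siCCNF and after both, all 3 markers fell together with Ccna2, Ccne2 and Cdk2. After siKEAP1, where these members also fell and Cdk2 was lowest, Top2a fell, and the summed level of the 3 markers was below every siCONTROL library. Mki67 (log2 fold change -0.24, SE 0.193) and Pcna (-0.07, SE 0.0688) had adjusted p of 0.344 and 0.429 there. The part of the markers in the values of the members was not tested.

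Of 10 listed genes that respond to growth factor signals, 5 rose and 4 fell after siKEAP1, beside 20.4% and 20.2% of all genes tested. Log2 fold changes over the 10 ran from -1.02 to 1.71, with a median of 0.19. The largest changes were the rises of Fosl1 (1.71, adjusted p = 5.12e-08), an AP-1 subunit, and of Etv4 (1.24, adjusted p = 3.77e-07), an ETS factor induced by ERK signals. After siCCNF, 2 rose and 6 fell, beside 22.5% and 25.5% of all genes. The largest changes there were the falls of Etv5 (-1.80, adjusted p = 1.75e-07) and Jun (-1.48, adjusted p = 1.01e-07). After both, 3 rose and 6 fell, beside 20.6% and 23.6% of all genes, with a median of -0.37.

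Markers of differentiated muscle, the other state that such a culture can hold, also moved with the groups. Of 12 genes 11 were tested, Ckm being the exception, and 11 fell after siKEAP1, 10 after siCCNF and 11 after both, with median log2 fold changes of -3.25, -1.39 and -2.75. Their summed level was 98.8 to 203 CPM in siCONTROL, 10.6 to 12.2 after siKEAP1, 36.3 to 50.9 after siCCNF and 20.4 to 22.1 after both. The largest fall after siKEAP1 was that of Myog, a regulator of muscle differentiation, from a mean of 45.3 to 0.175 CPM. Its siCONTROL libraries had 74.6, 32.0 and 29.3 CPM. Of the 7 myoblast markers, 6, 6 and 7 fell in the same comparisons. Ccnd3, Ccne1 and the sum of this list were each lowest in the siKEAP1 group, the sum at 10.6 to 12.2 CPM. After siKEAP1/siCCNF, Ccnd3 and Ccne1 were within the range of siCONTROL or above it, and the sum was 20.4 to 22.1 CPM. The part of the differentiated cells in the values of the 10 genes was not tested.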

How the data were processed

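The authors deposited 1 table with, for each of 12 libraries, the raw count of reads for every gene and an FPKM value. Per the labels, the submitters' processing notes name HISAT2 and GRCm39, but 98.262% of the gene identifiers found in GENCODE M21 had that annotation's GRCm38 coordinates, as did all 10 genes reported, so coordinates are given on GRCm38. The counting tool, its use of strand and the annotation are not given in the sources used here, which also give different serum concentrations for growth. The table's columns of the authors' own comparisons (log2 fold changes, p-values and adjusted p-values of each depletion against siCONTROL) were not used.

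Groups were taken from the sample labels. The tests ran on raw counts, with edgeR 4.0.16 under R 4.3.3. The filterByExpr function retained 15122 genes, TMM scaled the libraries (factors 0.971 to 1.02), and the 4 groups entered 1 quasi-likelihood fit. An adjusted p in the text comes from this edgeR fit, or from the fit of an alternative where that alternative is named. Adjustment was by Benjamini-Hochberg over all genes tested in the fit, and genes were called at an adjusted p under 0.05. Log2 CPM used a prior count of 2. Levels of different genes were compared by the deposited FPKM. The labels describe the replicates as biological. Whether they came from separate days is not stated. The code was tested on simulated data.

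Named genes are the 10 members, Keap1, Ccnf, neighbours that overlap a member, genes of partner lists of up to 8 genes, any of which could be named, the 2 largest called changes of longer lists, and the 3 genes most like the member with the largest change, among genes with a mean of at least 1 log2 CPM. The overlapping neighbours Oraov1, Tspan31 and Ints8, and the pairs of members whose correlations are given, were chosen after their values were seen. So were Myod1 and Des among the myoblast markers. Members and lists were chosen with earlier results of these data known. The alternatives were DESeq2 1.42.0, total library sizes, other filters (none, or 10 counts in every library), a replicate block, the compared groups only, removal of a gene length trend by splines with 5 degrees of freedom, limma 3.58.1 on log2(FPKM + 1) and log2(FPKM + 0.1), leaving out each library, a 2-fold threshold (its count under each other alternative was added after seeing the data), and shares from CPM. Promoter sequences are from RefSeq.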

Additional observations from a re-analysis of the deposited data

Results flagged for a closer look

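In 5 of the 10 genes the effect of siKEAP1 differed between control and CCNF-depleted cells by the test of the difference itself (edgeR interaction, log2 scale, 3 libraries in each of 4 groups). It was higher for 4 and lower for 1, beside 10.6% and 10.5% of all genes tested. The difference was 1.23 for Ccne1 (adjusted p = 3.54e-05), 0.88 for Ccna2 (adjusted p = 1.8e-05), 0.83 for Cdk2 (adjusted p = 8.21e-05) and 0.42 for Ccnd3 (adjusted p = 0.00443), and -0.68 for Ccnd1 (adjusted p = 0.0034). In all 5 genes the effect of siKEAP1 was further from 0 in control than in CCNF-depleted cells. Keap1 was at 12.6 CPM after siKEAP1 and at 24.1 CPM after siKEAP1/siCCNF, and the part of this in the 5 values was not tested. With 3 libraries in a group, no test for a single outlying library was run.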

How the results depend on the processing

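Of 1250 values of the 60 member log2 fold changes under the alternatives, 1200 kept their direction and their side of the threshold, 21 lost a call, 14 gained one and 15 changed sign. No called value changed sign. The sign changes were in Ccnd2 against siKEAP1 (0.02 with the length trend removed, -0.26 to 0.00 with 1 library left out), Ccnd3 after both against siCONTROL (-0.03 to 0.06 with 1 library left out), Ccnd3 after both against siCCNF (0.02 on total library sizes, 0.04 with the length trend removed, and up to 0.01 with 1 left out), Cdk2 after both against siCCNF (-0.00 without siCCNF replicate 1), Cdk4 after siKEAP1 (-0.09 to 0.03 with 1 left out, the sign changing without siCONTROL replicate 1), Cdk6 after both against siCCNF (-0.07 to 0.13 with 1 left out) and Cdc25a after siKEAP1 (0.00 with at least 10 counts in every library, 0.03 without siKEAP1 replicate 1).

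In siKEAP1/siCCNF against siCCNF, 1 member was called higher and 0 lower. Total library sizes, removal of the length trend and DESeq2 gave 2 higher, and no filter or removal of the length trend gave 1 lower. Leaving out a library gave 0 to 2 higher and 0 to 1 lower. The call of Ccna2 there was lost in 13 alternatives, with adjusted p of up to 0.202, and Ccnd1 gained a call in 7, for example with DESeq2 (0.35, adjusted p = 0.0128). After siCCNF, 1 to 2 members were called higher when a library was left out. With a 2-fold threshold as well, the counts lower and higher became 1 and 1 after siKEAP1, 4 and 0 after siCCNF, 2 and 0 after both, 2 and 1 against siKEAP1, 0 and 0 against siCCNF, and 0 and 1 for the interaction. Removal of the length trend made Cdk6 lower after siCCNF (-0.24, adjusted p = 0.0198) and gave Cdk4 an interaction (0.32, adjusted p = 0.0432). The cause of these changes was not tested.

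Whether replicate numbers in the labels pair the libraries could not be decided. Deviations of the 18 pairs with the same number correlated from -0.268 to 0.204, 4 over 0.1. Among siCONTROL, siKEAP1 and siCCNF all of these pairs were positive, from 0.00352 to 0.204. Same-number pairs with siKEAP1/siCCNF ran from -0.268 to 0.138, and its replicate 3 correlated at 0.39 with siCONTROL replicate 1. Of 12 libraries, 6 correlated best with their own number. A replicate block moved Ccna2 in siKEAP1/siCCNF against siCCNF out of the calls (0.23, adjusted p = 0.0602) and Ccnd1 into them (0.35, adjusted p = 0.0258), and changed no other call among the 10 genes. Shares from CPM, which are not per length, put Ccnd1 at 48.3% of the D-type cyclins in siCONTROL, 71.7% after siKEAP1, 29.5% after siCCNF and 35.3% after both. With 3 libraries per group, the SE of a member's log2 fold change between 2 groups was 0.0591 to 0.158, and differences of that size were not detectable.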
